A study of Homo sapiens with 9 samples.

Results

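The RNA exosome subunits described here are 10 genes, EXOSC1, EXOSC2, EXOSC3, EXOSC4, EXOSC5, EXOSC7, EXOSC8, EXOSC9, EXOSC10 and DIS3, taken by symbol from the 26929 genes of the deposited table. RNA came from MV4-11, an established line of human acute myeloid leukaemia cells, after 24 h with JPX-0700, with JPX-0750 or with the vehicle DMSO, in 3 libraries per group and 9 in all. All groups are this one cell line, in the same medium, and the series calls both compounds dual degraders of STAT3 and STAT5, transcription factors of cytokine signalling. The labels give neither the dose nor whether the libraries of a group came from separate cultures, so p-values measure only the spread between these samples, which may be technical. Values are the authors' normalised counts of reads from the 3′ ends of polyadenylated RNA.

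The RNA exosome degrades and trims RNA from its 3′ end in the nucleus and the cytoplasm of all eukaryotic cells. A catalytically inactive ring of RNase PH-like proteins (EXOSC4, EXOSC5, EXOSC6, EXOSC7, EXOSC8 and EXOSC9) is covered by a cap of RNA-binding proteins (EXOSC1, EXOSC2 and EXOSC3), and RNA is threaded through it or led directly to the attached nucleases EXOSC10 and DIS3. In the nucleus the helicase MTREX and its adaptors deliver ribosomal RNA precursors, small structured RNAs and unstable transcripts to it, and in the cytoplasm the SKI complex delivers mRNA. EXOSC6 is not among the 10 genes and is given once beside them.

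The libraries were shallow and uneven. JPX-0700 libraries held 739418 to 1852375 reads on genes, JPX-0750 libraries 726043 to 1941860 and DMSO libraries 2701317 to 6305586. JPX-0700 replicate 3, JPX-0750 replicate 3 and DMSO replicate 1 stood apart by the number of genes with a read, 10027, 10407 and 9816, against 13068 to 14616 in the other 6 libraries, and results are given with and without these 3. Structured noncoding RNAs, some of which are substrates of the exosome, took 8.98% ± 0.994 (SD, n = 3) of reads with JPX-0700 and 11.9% ± 1.38 with JPX-0750, against 0.119% ± 0.102 with DMSO, and the part of this in the values below was not tested. Each of the 10 myeloid genes checked had a read in at least 1 library, though MPO, a marker of myeloid granules, had 0 reads with JPX-0700, 1 with JPX-0750 and 61 with DMSO, and HOXA9 had 2, 0 and 3. Their summed normalised counts were 2896 to 5219 in JPX-0700 libraries, 2400 to 4305 in JPX-0750 libraries and 5853 to 9605 in DMSO libraries. Among markers of other cell types, HBB, EPCAM and KRT19 were at 0 in every library, and the markers summed to 61.1 to 130 with JPX-0700, 130 to 155 with JPX-0750 and 112 to 279 with DMSO. Most of the DMSO sums was PECAM1, at 110 to 262 there. PECAM1 was at 0 to 108 with JPX-0700 and 45.0 to 123 with JPX-0750. COL1A1, a collagen gene of fibroblasts, was at 4.55 to 108 in the 6 treated libraries and at 0 in the DMSO libraries, and CD3D, a T cell gene, was at 50.02 in JPX-0700 replicate 3 and at 0 elsewhere. Their part in the values below was not tested.

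All 10 subunits were detected in all 9 libraries, and all 10 had the mean normalised count of at least 5 needed for testing, as did 12301 genes in all. Together they took 1247 reads with JPX-0700, 1303 with JPX-0750 and 8297 with DMSO. No subunit passed an adjusted p of 0.05 (limma on log2(normalised count + 1), Benjamini-Hochberg over all genes tested) with either compound. Against DMSO, JPX-0700 changed 0 of 10 subunits where 5.77% of all genes passed, and JPX-0750 changed 0 of 10 where 3.98% passed. At an unadjusted p under 0.05 the counts were 1 of 10 with JPX-0700 (EXOSC10, lower) where 19.6% of all genes were below it, 6.03% on the lower side, and 0 of 10 with JPX-0750 where 14.2% were. A voom fit on whole reads likewise called 0 of 10 with each compound, where 9.06% of all genes passed with JPX-0700 and 5.58% with JPX-0750. In bulk RNA of this kind, fewer cells that express a gene and less of its RNA per cell cannot be told apart.

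The subunit with the smallest p against DMSO was EXOSC10, the distributive nuclear nuclease, with JPX-0700, and the cap subunit EXOSC2 with JPX-0750. The 250 bases upstream of the annotated starts of EXOSC10 and EXOSC8 are shown as examples. The JPX-0750 libraries lay wholly below DMSO for EXOSC10 and wholly above it for EXOSC8. They also lay wholly below DMSO for EXOSC2 and EXOSC7, which are not shown and held none of the motifs searched below. The bases shown are RefSeq sequences of GRCh38.p14, read 5′ to 3′ on the gene's strand, and capitals mark the letters GCGCATGC, the core recognised by the transcription factor NRF1.
EXOSC10, chr1:11099870-11100119, minus strand: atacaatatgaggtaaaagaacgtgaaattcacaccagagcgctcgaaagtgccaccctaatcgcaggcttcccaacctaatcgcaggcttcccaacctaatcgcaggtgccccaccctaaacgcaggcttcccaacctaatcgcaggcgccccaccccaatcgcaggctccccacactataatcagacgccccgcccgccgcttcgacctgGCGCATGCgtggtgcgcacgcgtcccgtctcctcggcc
EXOSC8, chr13:37000536-37000785, plus strand: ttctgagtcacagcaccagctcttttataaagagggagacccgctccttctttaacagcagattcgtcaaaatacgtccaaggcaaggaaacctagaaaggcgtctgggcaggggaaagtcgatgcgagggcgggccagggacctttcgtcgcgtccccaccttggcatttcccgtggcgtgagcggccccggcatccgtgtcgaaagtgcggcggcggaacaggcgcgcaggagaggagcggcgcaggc
The RefSeq table matched 8 of the 10 genes, all but EXOSC1 and EXOSC4. In windows of 300 bases, 250 before to 50 after the start, searched on both strands, GCGCATGC was present in EXOSC10 only, 38 bases before its start, and in 3.68% of 27305 genes. The STAT motif TTCNNNGAA was in 0 of the 8 windows and in 9.38% of all genes, and the heat shock motif GAANNTTC was in 0 of 8 and in 8.21%. The E-box CACGTG was in the window of EXOSC5 only, 89 bases before its start, and in 8.78% of all genes. A match describes these letters and is not a site.

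The 2 nucleases, EXOSC10 and DIS3, are described in turn and were not tested against each other. EXOSC10 (chromosome 1, 11066618 to 11099869, minus strand, in GRCh38, as all spans given) had normalised counts of 87.6, 78.3 and 25.0 in JPX-0700 libraries and 106, 91.0 and 125 in JPX-0750 libraries, against 178, 212 and 179 in DMSO libraries. Every treated library was below every DMSO library, and the JPX-0700 libraries were in turn below the JPX-0750 libraries. The log2 fold change of EXOSC10 was -1.74 ± 0.70 (SE) with JPX-0700 (95% interval -3.21 to -0.28, adjusted p = 0.1686) and -0.82 ± 0.70 with JPX-0750 (-2.29 to 0.64, adjusted p = 0.6289). Without the 3 libraries that stood apart, EXOSC10 passed the test with JPX-0700 at -1.23 ± 0.35 (adjusted p = 0.04883), the 1 subunit of 10 to do so, in a fit where 21.1% of all genes passed, 3.6% by falling. In that fit JPX-0750 gave -0.98 ± 0.35 (adjusted p = 0.09017) and called 0 of 10 subunits, where 20.8% of all genes passed, 3.05% by falling. Leaving out single libraries kept EXOSC10 between -2.07 and -1.18 with JPX-0700, with no call. The gene's span also holds the antisense gene EXOSC10-AS1, and the sources used here do not say which strand was counted.

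DIS3, the processive nuclease that also cuts RNA internally, had normalised counts of 230, 224 and 183 in JPX-0700 libraries and 205, 123 and 207 in JPX-0750 libraries, against 176, 157 and 245 in DMSO libraries. The groups overlapped, and within JPX-0700 the highest library was 1.26 times the lowest, the narrowest spread of the 10 subunits in that group. Its log2 fold change was 0.16 ± 0.55 (SE) with JPX-0700 (95% interval -0.99 to 1.31) and -0.13 ± 0.55 with JPX-0750 (-1.28 to 1.03), a sign that depended on the scaling with JPX-0700, -0.57 at equal library totals, -0.14 with TMM factors and -0.70 with voom. DIS3 (chromosome 13, 72752169 to 72781900, minus strand) shares 4028 bases with BORA, whose counts were 64.5, 33.5 and 0 in JPX-0700 libraries and 24.0, 22.7 and 3.33 in JPX-0750 libraries, against 6.29, 4.98 and 11.3 in DMSO libraries. Reads from the shared bases cannot be told apart without the counted strand.

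**Figure D1:**
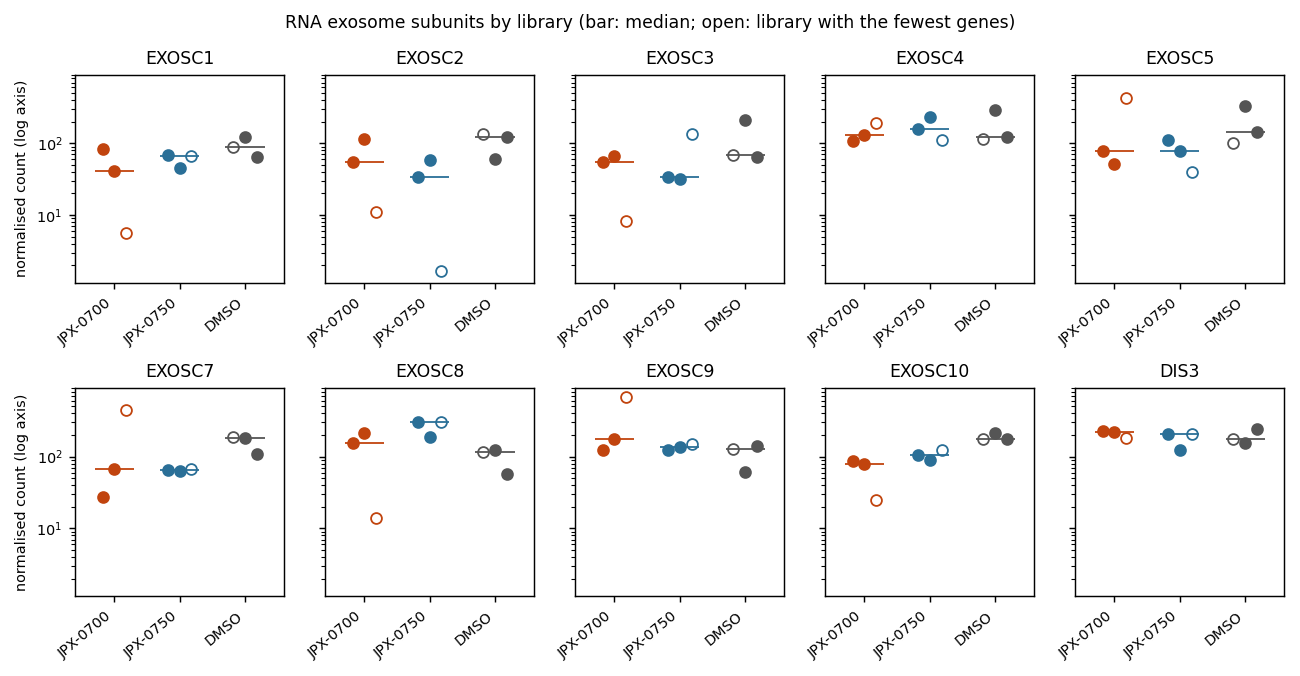
Normalised count of each of the 10 subunits (log axis) in the 3 libraries of JPX-0700, JPX-0750 and DMSO, with bars at the group medians and open points for the library of each group with the fewest genes. EXOSC10 is below DMSO in all 6 treated libraries, EXOSC8 is above DMSO in all 3 JPX-0750 libraries, and the open JPX-0700 point is far from its partners in most panels.

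The cap subunits had lower medians with either compound than with DMSO, with wide spreads between libraries. EXOSC1 (chromosome 10, 97435909 to 97446006) had normalised counts of 83.0, 41.0 and 5.56 in JPX-0700 libraries and 68.5, 45.5 and 66.6 in JPX-0750 libraries, against 88.0, 122 and 63.5 in DMSO libraries. The lowest value rested on 2 reads, the JPX-0700 and DMSO ranges overlapped, and so did those of JPX-0750 and DMSO. EXOSC2 (chromosome 9, 130693760 to 130704894, plus strand) had 55.3, 116 and 11.1 in JPX-0700 libraries and 34.2, 59.1 and 1.67 in JPX-0750 libraries, against 135, 61.0 and 121 in DMSO libraries. The JPX-0750 libraries were all below DMSO, by little for replicate 2, and replicate 3 rested on 1 read. EXOSC3 (chromosome 9, 37779714 to 37785092, minus strand), whose variants cause a pontocerebellar hypoplasia, had 55.3, 67.1 and 8.34 in JPX-0700 libraries and 34.2, 31.8 and 133 in JPX-0750 libraries, against 68.2, 213 and 64.6 in DMSO libraries. Here replicate 3 was the lowest JPX-0700 library and the highest JPX-0750 library, and both compounds overlapped DMSO.

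Against DMSO the log2 fold changes of the cap subunits were -1.64 ± 0.997 (SE) for EXOSC1, -1.23 ± 1.23 for EXOSC2 and -1.59 ± 1.01 for EXOSC3 in the JPX-0700 libraries, and the adjusted p-values were 0.377, 0.601 and 0.4001 by limma. The same genes had -0.56 ± 0.997, -2.50 ± 1.23 and -0.88 ± 1.01 with JPX-0750, at adjusted p = 0.8402, 0.3717 and 0.7377. The intervals all held 0. Without the 3 libraries that stood apart, the JPX-0700 values were -0.58, -0.10 and -0.94, and the JPX-0750 values were -0.65, -0.92 and -1.80, none past the threshold. Without JPX-0750 replicate 3 alone, the JPX-0750 value of EXOSC2 was -1.13.

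The ring subunits had estimates on both sides of 0. EXOSC8 (chromosome 13, 37000786 to 37009614, plus strand) had normalised counts of 157, 216 and 13.9 in JPX-0700 libraries and 301, 186 and 299.9 in JPX-0750 libraries, against 115, 124 and 56.5 in DMSO libraries. All 3 JPX-0750 libraries and 2 of 3 JPX-0700 libraries were above every DMSO library, and JPX-0700 replicate 3, with 5 reads, was below them all. The log2 fold change of EXOSC8 was 1.45 ± 0.86 (SE) with JPX-0750 (95% interval -0.36 to 3.26, adjusted p = 0.466) and -0.24 ± 0.86 with JPX-0700 (-2.05 to 1.57, adjusted p = 0.9027). Without JPX-0700 replicate 3 the JPX-0700 value turned to 0.97, and without all 3 libraries that stood apart it was 1.12 (adjusted p = 0.1414), beside 1.49 for JPX-0750 (adjusted p = 0.07059). EXOSC8 shares 303 bases with SUPT20H, which had 96.8, 119 and 2.78 in JPX-0700 libraries and 140, 50.02 and 76.6 in JPX-0750 libraries, against 11.7, 81.3 and 72.7 in DMSO libraries. SUPT20H was likewise lowest in replicate 3 among the JPX-0700 libraries, and reads from the shared bases cannot be told apart here either.

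EXOSC9, partner of EXOSC4 in the ring and also known as a scleroderma autoantigen, had normalised counts of 124, 175 and 670 in JPX-0700 libraries and 123, 136 and 150 in JPX-0750 libraries, against 126, 61.0 and 142 in DMSO libraries. JPX-0700 replicate 3 was several times any other library, and the ranges of all groups overlapped. The log2 fold change was 1.24 ± 0.69 (SE) with JPX-0700 (adjusted p = 0.3341), 0.52 without that replicate, and 0.40 ± 0.69 with JPX-0750 (adjusted p = 0.8365), where it was -0.13 at equal library totals and -0.0028 with voom. EXOSC9 (chromosome 4, 121801323 to 121817021, plus strand) shares 578 bases with the cyclin gene CCNA2, which had 180, 93.2 and 33.3 in JPX-0700 libraries and 30.8, 118 and 58.3 in JPX-0750 libraries, against 143, 214 and 334 in DMSO libraries. In replicate 3 of JPX-0700, CCNA2 was the lowest of its group and EXOSC9 the highest.

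EXOSC7 (chromosome 3, 44976244 to 45012668, plus strand), a ring subunit, had normalised counts of 27.7, 67.1 and 445 in JPX-0700 libraries and 65.0, 63.7 and 66.6 in JPX-0750 libraries, against 185, 179 and 108 in DMSO libraries. The JPX-0750 libraries agreed within 1.05 times and were all below DMSO, as were 2 of 3 JPX-0700 libraries, while JPX-0700 replicate 3 was above every DMSO library. EXOSC5 (chromosome 19, 41386374 to 41397359, minus strand), another ring subunit, had 78.3, 52.2 and 434 in JPX-0700 libraries and 113, 77.3 and 39.98 in JPX-0750 libraries, against 101, 328 and 144 in DMSO libraries. The same JPX-0700 replicate was again the high one, and both compounds overlapped DMSO. The log2 fold changes with JPX-0700 were -0.69 ± 0.87 (SE) for EXOSC7 and -0.47 ± 0.82 for EXOSC5 (adjusted p = 0.6807 and 0.7798). Without JPX-0700 replicate 3 they were -1.80 and -1.38, and without the 3 libraries that stood apart -1.67 and -1.75, with adjusted p = 0.06909 and 0.0512. JPX-0750 gave -1.22 ± 0.87 for EXOSC7 and -1.24 ± 0.82 for EXOSC5 (adjusted p = 0.5549 and 0.5249).

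EXOSC4, the remaining ring subunit of the 10, is annotated on chromosome 8 at 144064056 to 144080648. It had normalised counts of 106, 130 and 195 in JPX-0700 libraries and 157, 232 and 110 in JPX-0750 libraries, against 115, 287 and 123 in DMSO libraries. The 3 groups lay over the same range. Its log2 fold changes were -0.20 ± 0.63 (SE) with JPX-0700 (95% interval -1.51 to 1.12) and -0.0046 ± 0.63 with JPX-0750 (-1.32 to 1.31). These intervals hold for the authors' scaling only. At equal library totals the values were -0.92 with JPX-0700 and -0.54 with JPX-0750. TMM factors gave -0.50 and -0.27, and voom gave -0.97 and -0.75. EXOSC6, the ring subunit that is not among the 10, had 36.9, 96.9 and 16.7 in JPX-0700 libraries and 75.3, 77.3 and 1.67 in JPX-0750 libraries, against 209, 93.6 and 93.1 in DMSO libraries. Its log2 fold changes were -1.61 ± 1.22 (adjusted p = 0.4752) and -2.29 ± 1.22 (adjusted p = 0.4138), and the lowest library again rested on 1 read. Without that library, JPX-0750 replicate 3, the JPX-0750 value of EXOSC6 was -0.67, and without the 3 libraries that stood apart the values were -0.63 with JPX-0700 and -0.29 with JPX-0750.

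**Figure D2:**
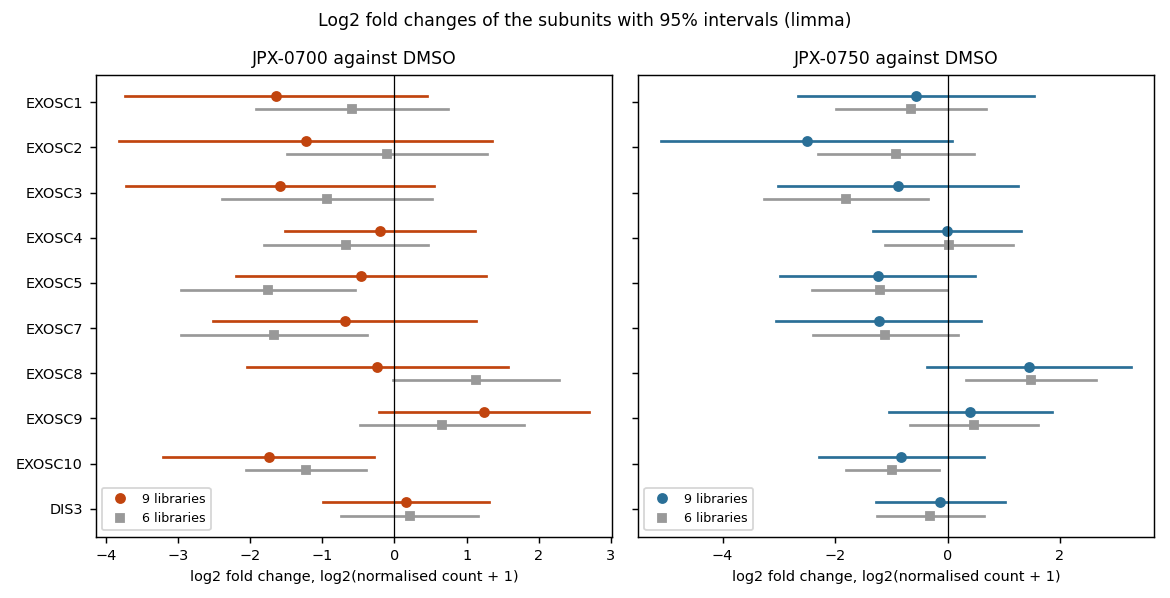
Log2 fold changes of the 10 subunits on the log2(normalised count + 1) scale with 95% intervals, for JPX-0700 against DMSO (left) and JPX-0750 against DMSO (right), from all 9 libraries (circles) and from the 6 that remain without the library of each group with the fewest genes (grey squares). The interval of EXOSC10 with JPX-0700 lies below 0 in both fits, and EXOSC8 changes sides with JPX-0700 between them.

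Across the 10 subunits the estimates were mostly negative, 8 of 10 with each compound, with medians of -0.58 for JPX-0700 and -0.69 for JPX-0750, against 0.14 and 0.26 over all genes tested. Since these last medians lay above 0, most estimates over all genes were positive, and their exact share was not counted. At equal library totals 9 of 10 were negative with each compound, and the medians were -1.31 and -1.23, against -0.50 and -0.23 over all genes. On that scale most estimates over all genes were negative too. The subunits' median minus that of all genes was thus -0.72 with JPX-0700 and -0.96 with JPX-0750 in the authors' scaling, and -0.81 and -0.99 at equal library totals. Among the 7241 genes with a mean of at least 50, which held all 10 subunits, the differences were smaller, -0.61 and -0.78. Without the 3 libraries that stood apart 7 of 10 were negative with each compound, with differences of -1.02 and -1.25. Without JPX-0700 replicate 1 the JPX-0700 difference was -0.46. Without DMSO replicate 2 the differences were -0.50 with JPX-0700, where 6 of 10 estimates were negative, and -0.63 with JPX-0750, where 7 of 10 were. Both compounds share the DMSO libraries, so the values of one are not independent of those of the other. The scaling also moved the calls over all genes. For JPX-0700 there were 649 rises and 61 falls in the authors' scaling and 378 rises and 283 falls at equal library totals. For JPX-0750 there were 480 rises and 9 falls in the authors' scaling, and the other scaling gave 304 and 57.

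Counting genes whose libraries did not overlap gave 1 of 10 subunits with JPX-0700 against DMSO, EXOSC10, lower, where 26.9% of all genes did not overlap, 16.5% higher and 10.3% lower. With JPX-0750 it gave 4 of 10, EXOSC2, EXOSC7 and EXOSC10 lower and EXOSC8 higher, where 28.9% of all genes did not overlap, 9.18% lower and 19.7% higher. The summed normalised counts of the 10 subunits were 1005, 1166 and 1990 in JPX-0700 libraries and 1208, 1046 and 1199 in JPX-0750 libraries, against 1286, 1745 and 1246 in DMSO libraries. These sums overlapped between all groups. As counts per library total (CPM of reads on genes) the sums were 295, 351 and 387 in JPX-0700 libraries and 330, 317 and 371 in JPX-0750 libraries, against 530, 722 and 573 in DMSO libraries. On this scale every treated library was below every DMSO library, and both scales hold the same reads. The sum of the myeloid genes and the share of structured RNAs given above also separated the treated from the DMSO libraries, and their part in the sums was not tested. Within the myeloid genes, LYZ, which encodes lysozyme, averaged 1868 with JPX-0700, 1557 with JPX-0750 and 5336 with DMSO. It was the largest part of the sum in DMSO libraries, at 4055 to 7377. With JPX-0700 LYZ was at 1152 to 2659 and with JPX-0750 at 801 to 2742, wholly below DMSO. The separation of the sum therefore does not describe the other myeloid genes. CSF1R was at 5.56 to 23.0 with JPX-0700 and 17.1 to 41.6 with JPX-0750, below the 46.8 to 70.0 with DMSO. FLT3 was at 236 to 277 with JPX-0750, below the 452 to 480 with DMSO, and overlapped DMSO with JPX-0700. The transcription factor gene MEIS1 went the other way, averaging 392 with JPX-0700, 424 with JPX-0750 and 162 with DMSO. It was at 297 to 503 with JPX-0750, above the 120 to 200 with DMSO, and overlapped DMSO with JPX-0700 (172 to 730). CD33, SPI1, CEBPA and CD68 overlapped DMSO with both compounds.

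JPX-0700 replicate 3 was at an end of its group for all 10 subunits. It was the highest JPX-0700 library for 4 subunits (EXOSC4, EXOSC5, EXOSC7 and EXOSC9) and the lowest for the other 6. The highest JPX-0700 library was 16.1 times the lowest for EXOSC7, 15.6 times for EXOSC8, 14.9 times for EXOSC1 and 10.4 times for EXOSC2. In JPX-0750 libraries the spread ran from 1.05 times for EXOSC7 to 35.5 for EXOSC2, and in DMSO libraries from 1.19 times for EXOSC10 to 3.29 for EXOSC3. DMSO replicate 2 was the highest DMSO library for 6 of the 10. A single read was worth 1.67 to 4.61 normalised counts in treated libraries and 0.383 to 0.898 in DMSO libraries.

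The make-up of the exosome reads was compared as the share of each subunit in the reads of the 10, which needs no scaling between libraries. These shares were chosen for description after their values were seen, they add up to 100% so that they move against each other, and an exact permutation test of 3 against 3 libraries could not go below p = 0.1. EXOSC10 took 8.72%, 6.71% and 1.26% of exosome reads in JPX-0700 libraries and 8.78%, 8.70% and 10.4% in JPX-0750 libraries, against 13.8%, 12.2% and 14.3% in DMSO libraries. All 6 treated libraries were below all 3 DMSO libraries, though the 95% Wilson intervals of JPX-0700 replicate 1 (5.65% to 13.2%) and of the 3 JPX-0750 libraries (highest upper bound 13.0%) reached the lowest DMSO value. Intervals cover counting error only, since reads without molecular identifiers are not independent molecules. EXOSC8 took 15.6%, 18.5% and 0.698% in JPX-0700 libraries and 24.9%, 17.8% and 25.0% in JPX-0750 libraries, against 8.94%, 7.12% and 4.54% in DMSO libraries. The JPX-0750 share was above DMSO in every library, and JPX-0700 was split by its replicate 3.

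EXOSC9 took 12.4%, 15.02% and 33.7% of exosome reads in JPX-0700 libraries and 10.2%, 13.0% and 12.5% in JPX-0750 libraries, against 9.78%, 3.49% and 11.4% in DMSO libraries, so that only JPX-0700 lay above DMSO in every library. EXOSC7 took 2.75%, 5.75% and 22.3% in JPX-0700 libraries and 5.38%, 6.09% and 5.56% in JPX-0750 libraries, against 14.4%, 10.3% and 8.69% in DMSO libraries. Its JPX-0750 share was below DMSO in every library. The other 6 subunits had shares that overlapped DMSO with both compounds. DIS3 took 22.9%, 19.2% and 9.22% in JPX-0700 libraries and 16.997%, 11.7% and 17.2% in JPX-0750 libraries, against 13.7%, 9.01% and 19.7% in DMSO libraries.

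**Figure D3:**
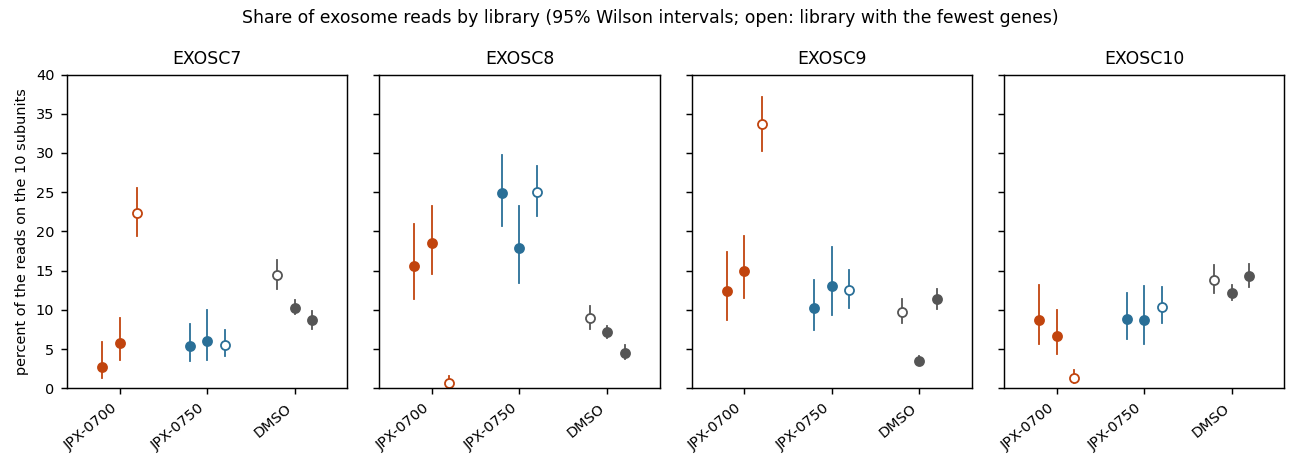
Percent of the reads on the 10 subunits that fell on EXOSC7, EXOSC8, EXOSC9 and EXOSC10, per library with 95% Wilson intervals, for JPX-0700, JPX-0750 and DMSO, with open points for the library of each group with the fewest genes. EXOSC10 is at 1.26% to 10.4% in treated libraries and 12.2% to 14.3% in DMSO libraries, and EXOSC8 is at 17.8% to 25.0% with JPX-0750 and 4.54% to 8.94% with DMSO.

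JPX-0750 and JPX-0700 were compared with each other, 1 pair of compounds at 24 h, at doses that the labels do not give. No subunit passed the test (0 of 10 by limma and by voom), and 0% of all genes passed. At an unadjusted p under 0.05 the count was again 0 of 10, where 3.21% of all genes were below it. The closest was EXOSC8, 1.69 ± 0.86 (SE) higher with JPX-0750 on the log2 scale (95% interval -0.12 to 3.50, adjusted p = 0.8475), which was 0.36 without the 3 libraries that stood apart. EXOSC10 did not overlap between the compounds, 106, 91.0 and 125 normalised counts with JPX-0750 and 87.6, 78.3 and 25.0 with JPX-0700, a log2 difference of 0.92 ± 0.70 (95% interval -0.54 to 2.39), the 1 subunit of 10 in which libraries did not overlap, where 8.35% of all genes did not and 4.72% lay higher with JPX-0750. The difference for DIS3 was -0.28 ± 0.55 (-1.44 to 0.87). The widest interval was that of EXOSC2, -3.86 to 1.32, and that of EXOSC4 ran from -1.13 to 1.51.

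Around the complex, 33 cofactors and other RNA exonucleases were listed, of which 30 could be tested. The list was chosen with earlier results of these data known, so its counts beside those of all genes only describe it. SKIC2 and PARN were listed at 0 in every library, and DXO had a mean under 5. With JPX-0700, 4 of 30 rose (MPHOSPH6, ZFC3H1, NVL and XRN1) and 0 fell, where 5.28% of all genes rose and 0.496% fell. With JPX-0750, 1 of 30 rose (ZFC3H1) and 0 fell, where 3.9% of all genes rose and 0.0732% fell. The median log2 fold change of the 30 was 0.44 with JPX-0700 and 0.30 with JPX-0750, against 0.14 and 0.26 over all genes, and at equal library totals it was -0.28 and -0.23, against -0.50 and -0.23. Between the compounds 0 of 30 passed, by limma and by voom, and 0 of 30 had an unadjusted p under 0.05. Libraries did not overlap DMSO for 11 of 30 with each compound, where 26.9% of all genes did not with JPX-0700 and 28.9% with JPX-0750. The cofactors named below were chosen by p or after their values were seen, so their separation from DMSO only describes them.

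ZFC3H1, the zinc finger protein that links MTREX to polyadenylated nuclear RNA in the PAXT connection, had normalised counts of 1161, 794 and 1459 in JPX-0700 libraries and 986, 928 and 663 in JPX-0750 libraries, against 151, 92.0 and 385 in DMSO libraries. All treated libraries were above all DMSO libraries. It rose 6.27-fold with JPX-0700 (log2 fold change 2.65 ± 0.53 SE, adjusted p = 0.00405) and 4.81-fold with JPX-0750 (2.27 ± 0.53, adjusted p = 0.01691). The JPX-0700 call held under all 18 alternatives run. The JPX-0750 call was lost at equal library totals (adjusted p = 0.0903) and without JPX-0750 replicate 1 or 2 or DMSO replicate 1 or 2 (0.08131 to 0.1137).

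NVL, an AAA ATPase that works with MTREX in ribosome assembly, had normalised counts of 419, 287 and 650 in JPX-0700 libraries and 298, 159 and 220 in JPX-0750 libraries, against 94.3, 25.7 and 120 in DMSO libraries. The treated libraries were all above DMSO, and NVL rose with JPX-0700 (2.67 ± 0.65, adjusted p = 0.0189) but did not pass with JPX-0750 (1.70 ± 0.65, adjusted p = 0.2044). XRN1, the cytoplasmic exonuclease that degrades mRNA from the opposite, 5′, end, had 599, 492 and 925 in JPX-0700 libraries and 606, 391 and 385 in JPX-0750 libraries, against 255, 71.3 and 174 in DMSO libraries. It too was higher in every treated library, and it rose with JPX-0700 (2.13 ± 0.54, adjusted p = 0.02481) and missed the threshold with JPX-0750 (1.61 ± 0.54, adjusted p = 0.1314). MPHOSPH6, which holds MTREX to the nuclear exosome, had 525, 1193 and 1434 in JPX-0700 libraries and 825, 855 and 520 in JPX-0750 libraries, against 348, 210 and 348 in DMSO libraries. Its libraries did not overlap with DMSO either, with 1.71 ± 0.49 for JPX-0700 (adjusted p = 0.04712) and 1.28 ± 0.49 for JPX-0750 (adjusted p = 0.2012).

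The differences of these genes between the compounds were not past the threshold, -0.97 for NVL, -0.53 for XRN1 and -0.43 for MPHOSPH6 (JPX-0750 minus JPX-0700). The call of MPHOSPH6 was lost under 14 of the 18 alternatives (adjusted p = 0.0556 to 0.2132). Those of NVL and XRN1 were lost at equal library totals (0.08695 and 0.1209), with only JPX-0700 and DMSO libraries in the fit (0.07719 and 0.08706), without JPX-0700 replicate 1 (0.05533 and 0.05865) or 3 (0.05146 and 0.05471), and without DMSO replicate 2 (0.1234 and 0.1587). That of XRN1 was also lost with TMM factors (0.05442) and voom (0.06165).

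By class, the 6 nuclear and TRAMP cofactors had 1 rise with JPX-0700 and a median of 0.85, and no rise with JPX-0750 and a median of 0.32. The 3 adaptors of MTREX had medians of 1.75 and 0.47, the 2 members of the NEXT complex 0.60 and 0.68, and the 5 genes of cap binding and its adaptors -0.33 and -0.041, with 1 rise among them all, NVL with JPX-0700. The 4 tested genes of the cytoplasmic exosome and SKI complex had medians of -0.70 and -0.060, with none past the threshold. Beside ZFC3H1, the other PAXT member, the nuclear poly(A)-binding protein PABPN1, did not pass with JPX-0700 (adjusted p = 0.4805) or JPX-0750 (adjusted p = 0.2098). It had 5 reads over the JPX-0700 libraries, 35 over the JPX-0750 libraries, 29 of them in replicate 3, and 1 over the DMSO libraries, so no fold is given. The 8 other RNA exonucleases tested had medians of 0.15 and 0.20, with XRN1 the only rise. MTREX itself, the helicase that feeds the nuclear exosome and is listed under its older symbol SKIV2L2, had normalised counts of 1092, 1636 and 917 in JPX-0700 libraries and 1311, 1278 and 598 in JPX-0750 libraries, against 629, 215 and 498 in DMSO libraries. MTREX did not pass in all libraries (1.53 ± 0.50, adjusted p = 0.08664, and 1.30 ± 0.50, adjusted p = 0.2082). It passed without the 3 libraries that stood apart (2.03, adjusted p = 0.02445, and 1.98, adjusted p = 0.02543), where 21.1% and 20.8% of all genes passed. With JPX-0700 its value was 0.80 at equal library totals (adjusted p = 0.3501), 1.23 with TMM factors (0.1637) and 0.80 with voom (0.2663). DIS3L, the cytoplasmic counterpart of DIS3, had 23.0, 37.3 and 13.9 in JPX-0700 libraries and 24.0, 54.6 and 3.33 in JPX-0750 libraries, against 76.3, 62.5 and 87.7 in DMSO libraries. Its treated libraries were all below DMSO, with -1.66 ± 1.16 (adjusted p = 0.4394) and -2.06 ± 1.16 (adjusted p = 0.4409). Without JPX-0750 replicate 3, which held 2 reads, the JPX-0750 value of DIS3L was -1.03, and without the 3 libraries that stood apart the values were -1.31 with JPX-0700 and -1.01 with JPX-0750. MTREX and DIS3L were chosen for naming after their values were seen.

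**Figure D4:**
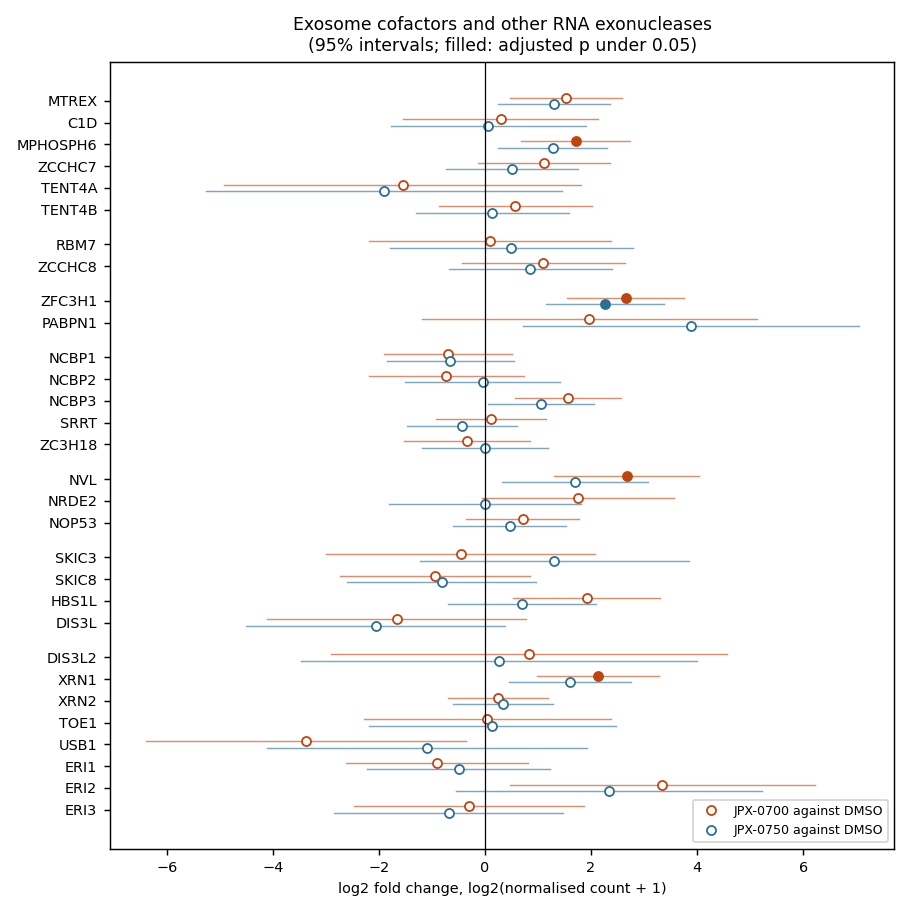
Log2 fold changes on the log2(normalised count + 1) scale with 95% intervals for the 30 tested cofactors and other RNA exonucleases, with JPX-0700 against DMSO and JPX-0750 against DMSO in 2 colours and filled points where the adjusted p was under 0.05. The filled points are ZFC3H1 with both compounds and MPHOSPH6, NVL and XRN1 with JPX-0700, all to the right of 0, and the points of PABPN1 rest on 1 DMSO read.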

How the data were processed

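Per the labels, total RNA of MV4-11 cells was isolated with a column kit and made into QuantSeq 3′ libraries. The submitters' processing notes name the build GRCh38, the aligner STAR 2.4.2a, the counter featureCounts 2.0.3, DESeq2 (no version), SAMtools 1.4 and FastQC 0.11.9. Annotation, counted strand and the treatment of multimapping reads are not given in the sources used. The authors deposited normalised counts (another unit than raw counts) of 26929 genes in 9 columns, with a decimal comma. In every library 100% of values were whole multiples of one step (tolerance 1e-06), so whole reads were recovered by dividing by it, 726043 to 6305586 per library.

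Genes with a mean of at least 5 (12301, with 14628 left out) were tested on log2(normalised count + 1), which understates the change of low genes. Under R 4.3.3, limma 3.58.1 estimated a mean for each group from all 9 libraries (6 residual degrees of freedom, variances following a trend), two-sided, with Benjamini-Hochberg adjustment and a threshold of 0.05. The fit was also run on simulated data, with independent noise and the same spread of a gene in every group. That run does not cover libraries that stand apart or differ in depth. Symbols, loci and promoters came from RefSeq (GRCh38.p14). The subunits, the cofactor list and the tests were chosen with earlier results of these data known. Named cofactors were those called in any comparison and the 3 of smallest p per compound, with exceptions named in the text. Alternatives changed the pseudocount, the filter, the scaling, the libraries, the block and the test. Same-numbered JPX-0750 and JPX-0700 libraries deviated together (r = 0.129, 0.171 and 0.190 across genes). So did JPX-0750 replicate 1 and JPX-0700 replicate 2 (r = 0.153), so these values do not establish a pairing, and no label states one. A fit with a replicate block over all 3 groups called 0 genes between the compounds. The main fit also called 0, so the block could not remove a call.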

Additional observations from a re-analysis of the deposited data

How the results depend on the processing

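No subunit passed the test under 17 of the 18 alternatives in any comparison. Without the 3 libraries with the fewest genes, 1 of 10 passed with JPX-0700 (EXOSC10). Of 30 cofactors, 4 passed with JPX-0700, which was 1 at equal library totals, 2 with TMM factors, 1 with only the 2 groups compared, 2 with voom on recovered reads, 7 without the 3 libraries (where 21.1% of all genes passed), and 1 to 4 with 1 library left out. With JPX-0750, 1 passed, which was 0 at equal library totals, 5 without the 3 libraries (where 20.8% of all genes passed), and 0 to 1 with 1 library left out (0 without JPX-0750 replicate 1 or 2 or DMSO replicate 1 or 2). The voom fit was chosen after seeing the data, and it stands in for the planned edgeR and DESeq2 fits, which were not run.

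Some uncalled subunit estimates changed sign, and the cause was not tested. Without the 3 libraries, log2 fold changes became 1.12 for EXOSC8 with JPX-0700, 0.025 for EXOSC4 with JPX-0750 and, for JPX-0750 minus JPX-0700, -0.064 for EXOSC1, -0.86 for EXOSC3, 0.54 for EXOSC5, 0.57 for EXOSC7 and 0.34 for EXOSC6. DIS3 with JPX-0700 became -0.57 at equal library totals, -0.14 with TMM and -0.70 with voom, and 0.15 with voom between the compounds. EXOSC9 with JPX-0750 became -0.13 at equal library totals and -0.0028 with voom. With 1 library left out, JPX-0700 values ran from -0.44 to 0.23 for EXOSC4, -1.38 to 0.14 for EXOSC5, -1.80 to 0.18 for EXOSC7 and -0.96 to 0.97 for EXOSC8. JPX-0750 values ran from -0.28 to 0.42 for EXOSC4 and -0.26 to 0.12 for DIS3. Between the compounds they ran from -2.19 to 0.10 for EXOSC2, -0.20 to 1.23 for EXOSC3, -0.079 to 0.46 for EXOSC4, -1.38 to 0.14 for EXOSC5, -1.40 to 0.58 for EXOSC7 and -1.50 to 0.94 for EXOSC6.

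Same-numbered treated and DMSO libraries did not deviate together (r = -0.143 to -0.0436), and no label pairs them. The library with the fewest genes was replicate 1 in DMSO and replicate 3 with both compounds. Deviations from means of 3 libraries therefore cannot show whether same-numbered libraries shared a culture or batch. With a replicate block, 0 subunits and 3 cofactors were called with JPX-0700 (MPHOSPH6 at adjusted p = 0.06327) and 0 and 1 with JPX-0750. Treated libraries held 1 to 241 reads per subunit.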
